A study of Mus musculus with 10 samples.

Results

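The circadian clock was described through 10 genes, taken by symbol from the table of normalized counts: the period and cryptochrome genes Per1, Per2, Per3, Cry1 and Cry2, the activator gene Clock, the REV-ERB genes Nr1d1 and Nr1d2, and the output factor genes Dbp and Tef. All 10 were found among the 24202 gene symbols of the table, and all 10 passed the minimum mean of 10 normalized counts. The samples were 10 whole MB-49 tumors, 5 from mice given PIIO-1, an antibody against GARP, and 5 from mice given PBS. MB-49 is a mouse bladder cancer cell line, and 100000 cells were injected under the right flank skin. Every mouse, controls included, carried a knocked-in human LRRC32 gene, which encodes GARP, the cell surface docking protein of latent TGF-beta. PIIO-1 was given into the peritoneum at 200 ug per mouse on days 6 and 9, and tumors were collected on day 10. The study's design text names a single-cell suspension step beside RNA isolation. The labels give the day of collection and no hour, sex or age. Separate animals are not stated either, so p-values measure the spread between these samples, which may be technical.

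The clock is a feedback loop that runs with a daily period in most cells. The proteins CLOCK and BMAL1 (gene Arntl) bind E-box elements and switch on the Per, Cry, REV-ERB and Dbp genes, and PER and CRY proteins then return to the nucleus and block their own activators. REV-ERB proteins repress Arntl, so that Arntl transcripts are high when those of Nr1d1 and Dbp are low. DBP and TEF are PAR bZIP factors that bind D-box elements, where the product of Nfil3 acts as a repressor. Because each transcript peaks at its own time of day, a shift in phase moves some of these genes up and others down.

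Of the 10 clock genes 0 differed between PIIO-1 and PBS tumors in the test over all genes (limma, adjusted p under 0.05), where 0% of 16767 tested genes were called. Dbp, Tef and Per3 had the smallest p-values and stood lower in PIIO-1 tumors, while Arntl and Nfil3, outside the 10, stood higher. Across the 10 tumors 9 of the 78 clock gene pairs examined passed a permutation test of their correlation, 8 of them positive. The 8 joined Dbp, Per3, Nr1d1, Nr1d2 and Tef, a set named from this result. The share passing among pairs of other genes was not computed. No pair of Per1, Per2 or Cry1 with these 5 genes passed. With any 1 tumor left out, between 0 and 6 of the 78 pairs passed. With values centred within each treatment group 2 passed, of which Nr1d2 with Tef alone was among the 8.

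The upstream sequences of 3 of those 5 genes are shown first, chosen because they hold elements through which clock factors are known to act. Each is the 250 bases before a RefSeq transcript start, 5′ to 3′ on the gene's own strand (GRCm38.p6), with matched elements in capitals. Per3 (chr4:151044666-151044915, minus strand) holds 2 copies of the D-box, the element read by DBP and TEF. Tef (chr15:81811164-81811413, plus strand, the window of its downstream start) holds an E-box, and Nr1d1 (chr11:98775378-98775627, minus strand) a single E-box variant. The windows of Dbp and Nr1d2 held none of the elements searched for. Whether these elements bear on the correlations was not tested.

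Per3: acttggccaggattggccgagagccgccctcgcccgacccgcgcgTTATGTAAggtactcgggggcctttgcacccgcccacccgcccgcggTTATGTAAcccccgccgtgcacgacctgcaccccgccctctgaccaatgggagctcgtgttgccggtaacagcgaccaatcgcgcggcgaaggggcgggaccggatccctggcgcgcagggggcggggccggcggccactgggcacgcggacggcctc

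Tef: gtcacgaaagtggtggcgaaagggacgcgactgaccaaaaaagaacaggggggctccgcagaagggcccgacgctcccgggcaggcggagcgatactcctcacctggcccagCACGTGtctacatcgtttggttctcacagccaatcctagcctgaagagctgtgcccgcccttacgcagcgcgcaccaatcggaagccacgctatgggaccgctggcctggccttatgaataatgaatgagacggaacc

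Nr1d1: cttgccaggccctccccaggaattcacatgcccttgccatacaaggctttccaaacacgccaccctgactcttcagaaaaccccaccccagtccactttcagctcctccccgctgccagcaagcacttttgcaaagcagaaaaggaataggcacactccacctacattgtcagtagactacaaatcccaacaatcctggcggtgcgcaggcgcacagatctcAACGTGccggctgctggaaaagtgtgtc

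The elements were searched on both strands as the letters CACGTG for the E-box, CACGTT for its variant, TTANGTAA for the D-box, TAGGTCA for the core of the element shared by REV-ERB and ROR receptors, and TGACGTCA for the cyclic AMP response element; no match of one can be a match of another. In 32851 windows of the same length, 6.02% held the E-box, 3.85% the variant, 2.06% the D-box, 2.23% the receptor core and 1.55% the cyclic AMP element. Of the 10 clock genes 9 had an entry, with 13 windows in all. The E-box was found in 4 of these windows (Per1, Cry1 and both of Tef), the variant in 3 (Cry1, Cry2 and Nr1d1), the D-box in the Per3 window alone, and the receptor core and the cyclic AMP element in 0. Nfil3 held the receptor core 12 bases before its start. A match describes letters only, and elements outside 250 bases were not searched.

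Depth ran from 18843192 reads in genes (PBS tumor 4) to 37581521 (PBS tumor 3), and no clock gene of the 10 had fewer than 196 reads in any tumor. Levels below are normalized counts, which are read counts divided by 1 scaling factor per tumor, as mean ± SD of 5 tumors per group. Differences are PIIO-1 minus PBS on the log2(normalized count + 1) scale with the standard error (SE) from limma. Of the uroplakin genes, which mark the bladder lining, Upk2 and Upk3a had 3 reads or fewer in 8 and 9 of the 10 tumors and Upk1b in 1, while Upk1a had between 18.6 and 41.3 normalized counts. Of the epithelial markers, Krt8 (at least 50275 normalized counts) and Krt18 (at least 29446) were high in every tumor, Cdh1 ran from 231 to 1185, Epcam from 10.9 to 29.6 and Krt5 from 1.96 to 139. Vim, a mesenchymal marker, had at least 121178. Tumors hold several cell types, and fewer cells of a type and less RNA per cell cannot be told apart.

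Among the PAR bZIP factors, Dbp differed most. Dbp, a direct target of CLOCK and BMAL1 that is widely used as a marker of clock output (ENSMUSG00000059824.12, chr7:45705088-45710203, plus strand), had 689, 738, 1204.5, 902 and 1008.5 normalized counts in PBS tumors 1 to 5. In PIIO-1 tumors 1 to 5 it had 593, 588, 761, 569 and 402. Of the 5 PIIO-1 tumors 4 lay below the lowest PBS tumor, and PIIO-1 tumor 3 overlapped PBS tumors 1 and 2. The mean was 908 ± 209 with PBS and 583 ± 127 with PIIO-1, a difference of -0.64 (SE 0.18, 95% interval -1.03 to -0.25), or 0.642 of the PBS level. Dbp ranked 56 of 16767 genes by p and did not pass (limma, adjusted p = 0.837). With PIIO-1 tumor 5 left out the difference was -0.51. Sphk2 runs on the opposite strand and shares 539 of the 2993 exon bases of Dbp, so reads there cannot be assigned without strand; Sphk2 itself differed by -0.046 (SE 0.087).

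Tef, the related factor (chr15:81802421-81826863, plus strand), had 1804, 1847, 2253, 2542 and 2018 normalized counts in PBS tumors 1 to 5. In PIIO-1 tumors 1 to 5 it had 1549, 1842, 1820.5, 1742 and 1523. All 5 PIIO-1 tumors lay below the PBS median, and 3 of them below the lowest PBS tumor. The difference was -0.30 (SE 0.097, 95% interval -0.51 to -0.085; limma, adjusted p = 0.837). It was -0.22 without PBS tumor 4, the highest of the 10. Hlf, the remaining PAR bZIP gene, stayed below the minimum mean, with 6.60 ± 3.22 normalized counts with PBS and 4.33 ± 1.07 with PIIO-1.

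**Figure D1:**
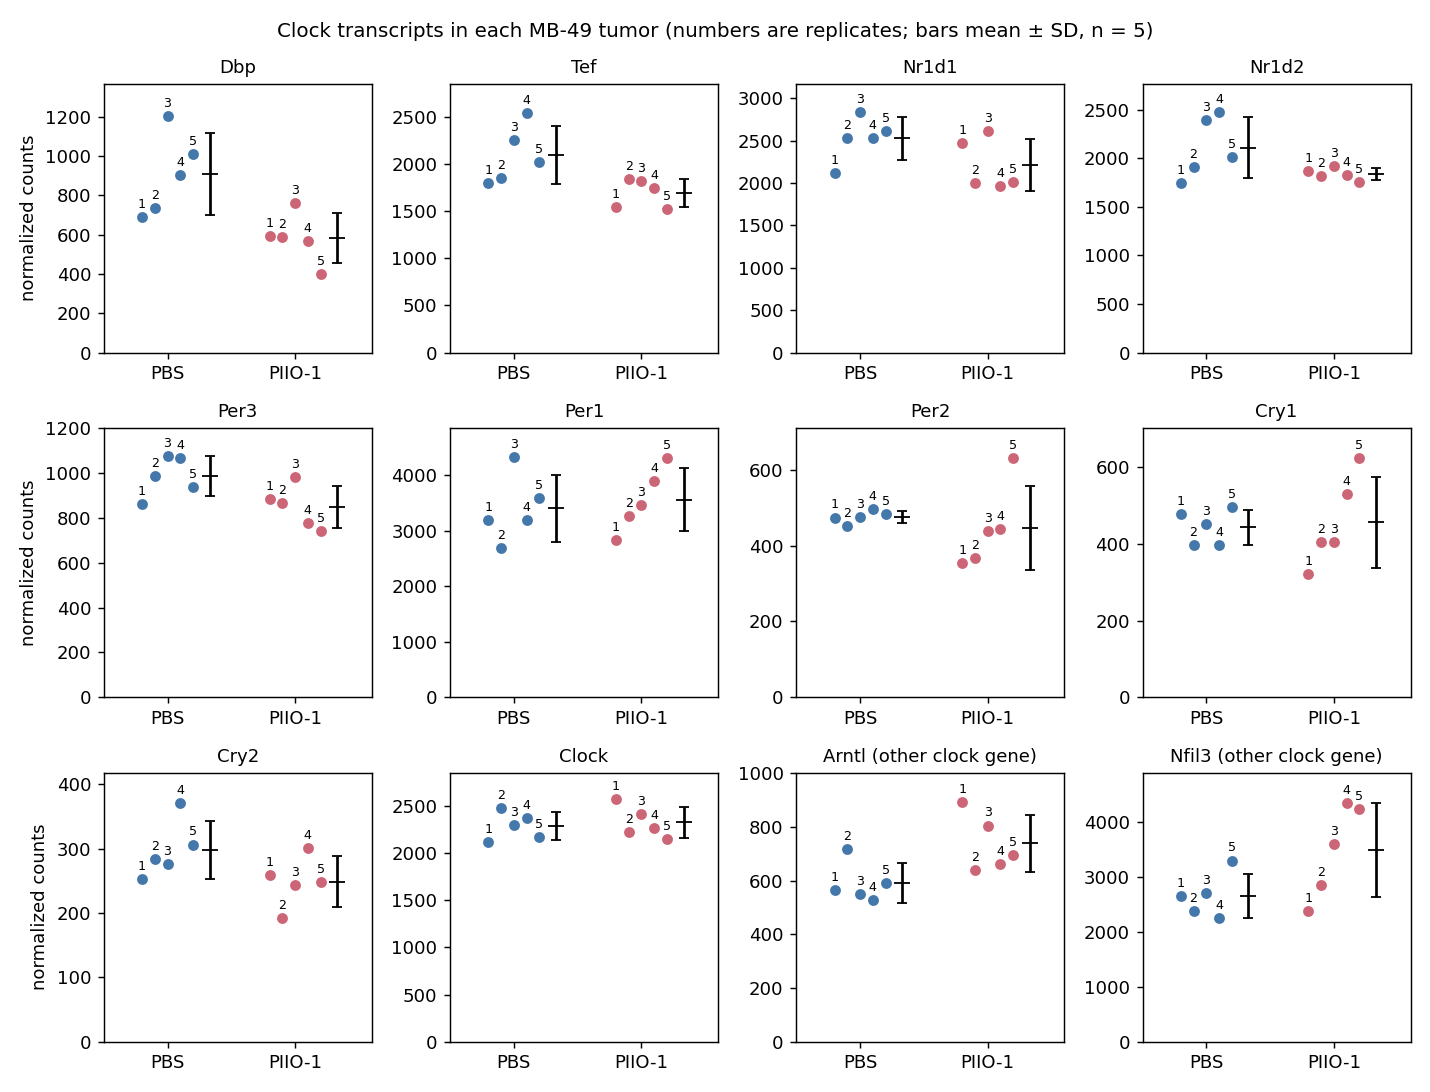
Normalized counts (y axis, from 0) of the 10 clock genes and of Arntl and Nfil3 in each tumor by group (x axis); numbers are replicates and bars mean ± SD of 5 tumors. Dbp lies below the lowest PBS tumor (689) in 4 of 5 PIIO-1 tumors, while Clock and Per1 overlap widely.

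The REV-ERB genes encode heme-binding nuclear receptors that close the second loop of the clock. Nr1d1 (REV-ERB alpha, chr11:98767932-98775333, minus strand) had 2123, 2533, 2838, 2526 and 2612 normalized counts in PBS tumors 1 to 5 and 2478, 1998, 2619.7, 1971 and 2014 in PIIO-1 tumors 1 to 5. Of the PIIO-1 tumors 3 lay below every PBS tumor, while tumors 1 and 3 lay within the PBS range. Nr1d1 differed by -0.19 (SE 0.098, 95% interval -0.41 to 0.021). Its 3' end overlaps Thra on the opposite strand over 8.55% of its exon bases, and Thra differed by -0.094 (SE 0.080). Nr1d2 (REV-ERB beta, chr14:18204054-18239127) had 2108 ± 315 normalized counts with PBS and 1838 ± 63.4 with PIIO-1, a difference of -0.19 (SE 0.089). Its PBS tumors ran from 1749 to 2479.5 and enclosed all PIIO-1 tumors, which lay between 1754 and 1923. Without PBS tumor 4 the Nr1d2 difference was -0.12.

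The period genes encode the rhythmic partners of the cryptochromes, and none of the 3 passed the test. Per3 (chr4:151003652-151044665), whose D-box elements are printed above, had 864, 986, 1075, 1066 and 940.5 normalized counts in PBS tumors 1 to 5. In PIIO-1 tumors 1 to 5 it had 883, 868, 981, 778 and 741. The groups overlapped, with 2 PIIO-1 tumors below the lowest PBS tumor and all 5 below the PBS median. The difference was -0.22 (SE 0.086, 95% interval -0.41 to -0.027; limma, adjusted p = 0.837). Per1 (chr11:69095217-69109960), which also responds acutely to stress hormones and growth signals, had 3404 ± 609 normalized counts with PBS and 3560.3 ± 570.0 with PIIO-1. It differed by 0.068 (SE 0.13). Per2 (chr1:91415982-91459324) differed by -0.12 (SE 0.13). Its 5 PBS tumors lay within 454 to 496 normalized counts, whereas PIIO-1 tumors ran from 355 to 632: tumors 1 to 4 lay below every PBS tumor and tumor 5 above all of them. Removing PIIO-1 tumor 5 gave a Per2 difference of -0.25, whereas removing PIIO-1 tumor 1 gave -0.047 and removing tumor 2 of that group gave -0.059.

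The cryptochromes are the main repressors of CLOCK and BMAL1, and neither gene passed the test. Cry1 (chr10:85131700-85185064) had 444 ± 45.6 normalized counts with PBS and 456 ± 119 with PIIO-1, a difference of 0.0070 (SE 0.16). It was highest in PIIO-1 tumors 5 (623) and 4 (529) and lowest in PIIO-1 tumor 1 (321). Cry2 (chr2:92403646-92434043) had 299 ± 45.0 and 249 ± 39.2 normalized counts, a difference of -0.26 (SE 0.13, 95% interval -0.55 to 0.024). The highest Cry2 value was that of PBS tumor 4 (371) and the lowest that of PIIO-1 tumor 2 (192).

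Clock, the activator with histone acetyltransferase activity (chr5:76209868-76304792), was the steadiest of the 10. It had 2289 ± 146 normalized counts with PBS and 2326 ± 167 with PIIO-1, and differed by 0.023 (SE 0.061, 95% interval -0.11 to 0.16). Its partner gene Arntl (chr7:113207465-113314126) had 566, 719, 549, 527 and 593 normalized counts in PBS tumors 1 to 5 and 892, 640.0, 805, 662 and 695 in PIIO-1 tumors 1 to 5. All 5 PIIO-1 tumors lay above the PBS median, and PBS tumor 2 was the single PBS tumor that reached the PIIO-1 range. Arntl differed by 0.32 (SE 0.11, 95% interval 0.082 to 0.56; limma, adjusted p = 0.837), opposite in sign to Dbp. Npas2, which can replace Clock, stayed below the minimum mean at 4.20 ± 1.88 normalized counts with PBS and 5.18 ± 3.57 with PIIO-1.

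At an unadjusted p under 0.05, 3 of the 10 clock genes were counted (Dbp, Tef and Per3), all lower in PIIO-1 tumors, beside 5.63% of all tested genes in either direction and 2.77% in the lower direction. This count was 6 without PBS tumor 1, beside 794 of 16767 tested genes, and 6 with array weights, beside 1172. Both settings added Cry2, Nr1d1 and Nr1d2. Leaving out PBS tumor 3 lowered the count to 2 (Dbp and Tef), beside 728 of all tested genes. Leaving out PBS tumor 4 gave the same 2, beside 884. With both PIIO-1 tumor 5 and PBS tumor 4 removed the count was 2 (Dbp and Per2), beside 612 of all tested genes. With all 10 tumors and no weights 944 of all tested genes were counted. The median difference of the 10 was -0.19, with 7 negative, beside a median of 0.0027 over all tested genes. For 0 of the 10 did the groups not overlap, beside 0.853% of all tested genes. DESeq2 on recovered reads called 3 genes (0.0179%), none of them a clock gene, with adjusted p = 0.243 for Dbp. edgeR called 0 of 16767, with 975 at an unadjusted p under 0.05 beside 944 by limma.

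Of 23 other clock genes 22 were in the table and 20 were tested, and 0 passed in either direction (limma). At an unadjusted p under 0.05, 3 were higher (Arntl, Nfil3 and Tsc22d3), beside 2.86% of all tested genes. Nfil3, the D-box repressor, had 2662 ± 402 normalized counts with PBS and 3487 ± 856 with PIIO-1, a difference of 0.36 (SE 0.16). PIIO-1 tumors 3, 4 and 5 lay above every PBS tumor, at 3603, 4352 and 4238 against at most 3301, and PIIO-1 tumor 1 (2388) lay near the low end of the PBS range. Tsc22d3, a glucocorticoid-induced leucine zipper gene with rhythmic output, differed by 0.19 (SE 0.079). The median of the 20 was 0.012, with 10 positive and 10 negative.

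**Figure D2:**
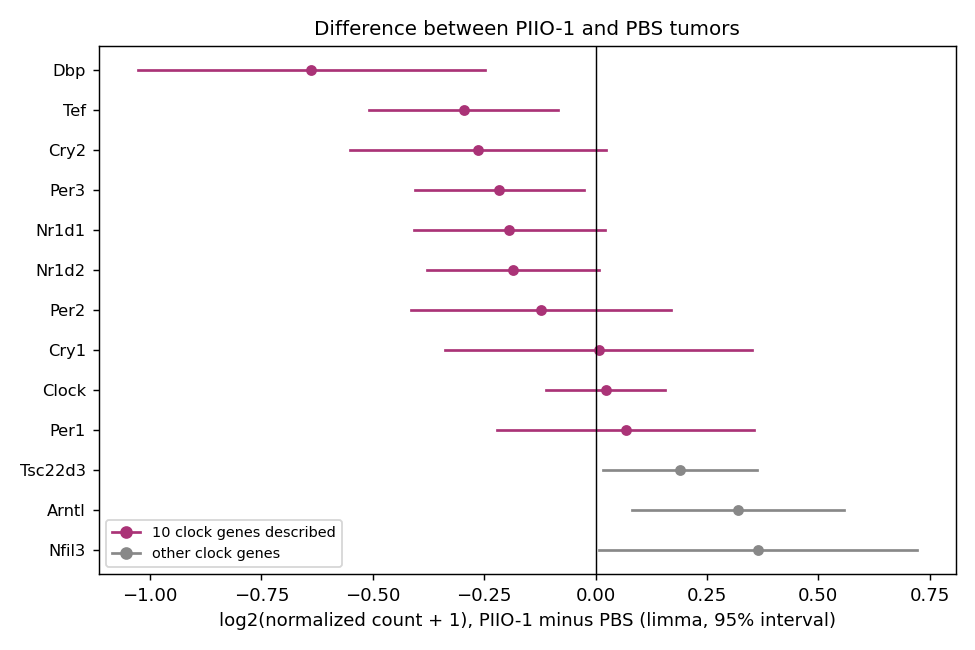
Difference PIIO-1 minus PBS in log2(normalized count + 1) (x axis, limma estimate with 95% interval) for the 10 clock genes and for Arntl, Nfil3 and Tsc22d3 (y axis). The intervals of Dbp, Tef and Per3 lie below 0, and those of Arntl, Nfil3 and Tsc22d3 lie above it.

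Levels of the 10 genes were ordered per length, in reads per kilobase of annotated exon, scaled to the reads in genes of each library (RPKM). In PBS tumors Nr1d1 was highest at 27.1 ± 2.74, followed by Per1 (19.9 ± 3.40), Nr1d2 (12.9 ± 2.07), Dbp (10.0 ± 2.25), Tef (8.78 ± 1.42), Clock (5.50 ± 0.414), Cry1 (4.38 ± 0.390), Per3 (3.39 ± 0.338), Per2 (2.68 ± 0.120) and Cry2 (1.56 ± 0.263). The mean ± SD bands of neighbours overlapped for Nr1d2 with Dbp and for Dbp with Tef. In PIIO-1 tumors the order was the same except that Tef (6.95 ± 0.674) came before Dbp (6.29 ± 1.41). There the bands of neighbours overlapped for Nr1d1 with Per1, Tef with Dbp, Dbp with Clock, Clock with Cry1 and Per3 with Per2. Lengths cover every annotated exon of a gene, so a gene with many alternative exons, such as Clock, is set low on this scale.

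The tumors differed from each other by more than read counting gives. Within groups the SD of log2 values was between 2.51 (Cry2) and 9.70 (Per1) times that of counting alone. It was largest for Dbp, at 0.33 beside a median of 0.17 over all tested genes, and smallest for Clock, at 0.097. From the lowest to the highest tumor Dbp spanned 3.00-fold over all 10 tumors and 1.75-fold among PBS tumors, whereas Clock spanned 1.22-fold over all 10. PBS tumor 3 was the highest of the 10 for Dbp, Per1, Per3 and Nr1d1, and PBS tumor 4 for Tef, Nr1d2 and Cry2. PIIO-1 tumor 5 was the lowest for Dbp, Tef and Per3 and the highest for Per2 and Cry1.

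Whether the genes shifted together from tumor to tumor was examined over 78 pairs of 13 genes, the 10 with Arntl, Npas2 and Nfil3, on log2 values over the 10 tumors. In total 9 pairs passed (two-sided permutation p of Pearson's r adjusted over 78 pairs), 8 positive and 1 negative. How many pairs of other genes would pass was not computed, so the count of 9 has no background beside it. The most similar genes of any kind are given further below. The 8 positive pairs joined Dbp, Per3, Nr1d1, Nr1d2 and Tef. Per3 with Dbp had r = 0.88 (permutation p = 0.00070, adjusted p = 0.0296) and rho = 0.88 (permutation p = 0.00166, adjusted p = 0.0432), and r = 0.75 without the 2 tumors farthest from the Per3 median. Nr1d2 with Tef had r = 0.89 (permutation p = 0.00076, adjusted p = 0.0296) and rho = 0.79 (permutation p = 0.00869, adjusted p = 0.0678), with r = 0.58 without the 2 tumors farthest from the Nr1d2 median. Nr1d1 with Dbp had r = 0.82 (permutation p = 0.00278, adjusted p = 0.0436) and rho = 0.89 (permutation p = 0.00116, adjusted p = 0.0432), with r = 0.84 without the 2 farthest. Among the other 5 positive pairs r lay between 0.78 and 0.87. With 1 tumor left out in turn, r of the 8 pairs stayed between 0.67 and 0.93. By Spearman's rho 3 pairs passed, Per3 with Dbp, Per3 with Nr1d2 and Nr1d1 with Dbp.

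The negative pair was Cry1 with Clock (r = -0.81, permutation p = 0.00479, adjusted p = 0.0436; rho = -0.82, permutation p = 0.00570, adjusted p = 0.0556; r = -0.66 without the 2 tumors farthest from the Cry1 median). The pairs of Cry1 with Per2 (r = 0.79), Per1 (r = 0.76) and Nfil3 (r = 0.75) missed the threshold (permutation, each adjusted p = 0.0712). Dbp with Per1 had r = -0.0021 and Dbp with Per2 r = -0.077. Tef with Arntl had r = -0.75 (permutation, adjusted p = 0.0734), Dbp with Arntl r = -0.51 and Nr1d1 with Arntl r = -0.031. With values centred within each treatment group, r with Arntl was -0.52 for Tef, -0.00060 for Dbp and 0.53 for Nr1d1. The negative r of Dbp with Arntl over all 10 tumors was thus not seen within groups.

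The number of pairs passing depends on which tumors are in. Leaving out any one of PBS tumors 2 and 3 and PIIO-1 tumors 4 and 5 gave 0, as did the analysis with both PIIO-1 tumor 5 and PBS tumor 4 removed. In these settings 13 to 16 pairs had an unadjusted p under 0.05 beside 16 of 78 in all 10 tumors. Leaving out PBS tumor 1 gave 6 pairs and PBS tumor 5 gave 1. Removing PIIO-1 tumor 2 gave 4, and removing PBS tumor 4 or either of PIIO-1 tumors 1 and 3 gave 5. With values centred within each treatment group 2 pairs passed, Nr1d2 with Tef (r = 0.85) and Cry1 with Nfil3 (r = 0.90), while Per3 with Dbp had r = 0.79. Groups of 5 are too small for a correlation within each. All values of a tumor share 1 library and 1 scaling factor; TMM scaling gave the same 9 pairs.

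**Figure D3:**
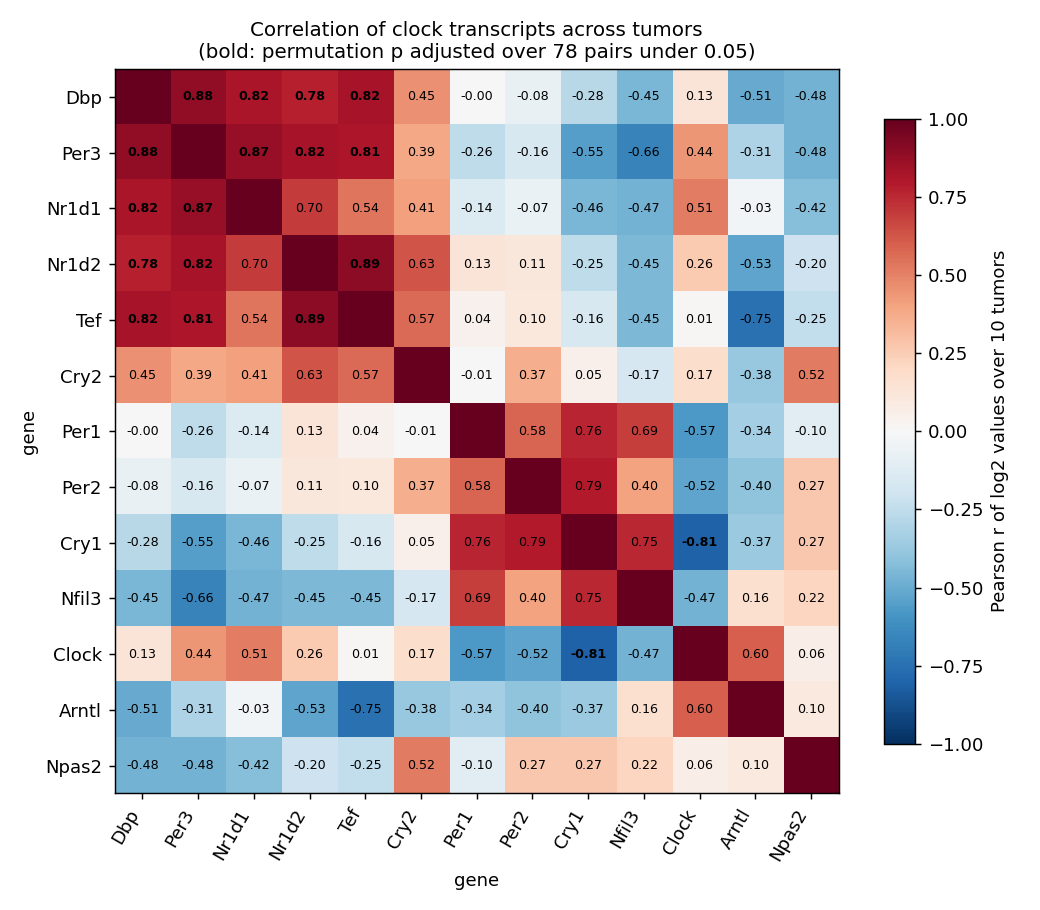
Pearson's r of log2(normalized count + 1) over 10 tumors for each pair of 13 clock genes (both axes list genes; colour and printed value give r, bold where the adjusted permutation p is under 0.05). Dbp, Per3, Nr1d1, Nr1d2 and Tef hold all 8 positive bold pairs, and Cry1 with Clock (-0.81) is the negative one.

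Within a tumor, the difference between the log2 values of a pair of clock genes gives a measure that a common scaling factor barely changes. In the loop described above, Arntl is opposed in phase to Nr1d1 and Dbp. Within the treatment groups of these tumors that opposition was not seen. There the r of centred values with Arntl was 0.53 for Nr1d1 and -0.00060 for Dbp. Arntl minus Nr1d1 was -1.90, -1.82, -2.37, -2.26 and -2.14 in PBS tumors 1 to 5 and -1.47, -1.64, -1.70, -1.57 and -1.53 in PIIO-1 tumors 1 to 5. The groups did not overlap, with means of -2.10 ± 0.233 (PBS) and -1.58 ± 0.0895 (PIIO-1). Arntl minus Dbp was -0.28, -0.039, -1.13, -0.77 and -0.77 in PBS tumors 1 to 5 and 0.59, 0.12, 0.081, 0.22 and 0.79 in PIIO-1 tumors 1 to 5. It was negative in all 5 PBS tumors and positive in all 5 PIIO-1 tumors. Of the differences between Arntl and each of 16766 other tested genes, 6.11% did not overlap between groups. No test was made on these differences, since the genes were chosen with earlier results of these data known. The other 2 differences overlapped. Nr1d1 minus Cry1 ran from 2.15 to 2.67 in PBS and from 1.69 to 2.94 in PIIO-1 tumors, and Dbp minus Per2 from 0.54 to 1.34 and from -0.65 to 0.79.

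**Figure D4:**
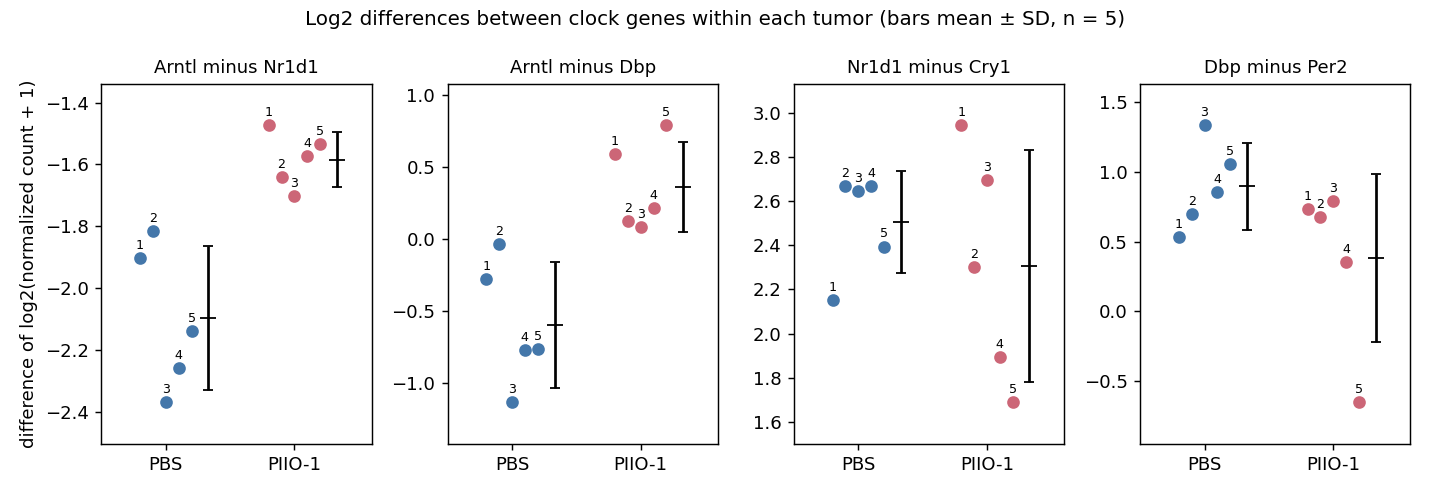
Difference between the log2(normalized count + 1) values of named gene pairs within each tumor (y axis) by group (x axis); numbers are replicates and bars mean ± SD of 5 tumors. Arntl minus Dbp lies below 0 in all PBS tumors and above 0 in all PIIO-1 tumors, whereas Nr1d1 minus Cry1 and Dbp minus Per2 overlap.

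The genes most like each of the 10 over the 10 tumors were looked up by Pearson's r and as a description, among 13110 tested genes averaging 50 or more. They were Bloc1s6, Tspan4 and Arsk for Dbp (r from 0.91 to 0.93), Nbas, Thoc5 and Nr1d2 for Tef (0.89 to 0.91), Tspan4, Tmtc4 and Strc for Per3 (0.95 to 0.96), Il34, Ssc5d and Plekha8 for Nr1d1 (0.92 to 0.95) and Asah2, Abraxas2 and Pphln1 for Nr1d2 (0.92 to 0.93). For Per1 they were Hbp1, Syf2 and Phyh, for Per2 Polg2, Perp and Cpt1a, for Cry1 Tbc1d9, AC163032.1 and Pnpla7, for Cry2 Apmap, Zfp26 and 2610028E06Rik, and for Clock Rock2, Nsd2 and Tnks2. The closest clock gene ranked 3 for Tef (Nr1d2), 6 for Nr1d2 (Tef), 7 for Dbp (Per3), 16 for Per3 (Dbp) and 19 for Nr1d1 (Per3). It ranked 36 for Cry1 (Rora), 44 for Per2 (Cry1), 220 (r = 0.63) for Cry2 (Nr1d2) and 572 for Clock (Arntl2).

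Lists of genes for other cell types and states were set beside these values, and 0 genes of the 10 lists passed the test. PIIO-1 tumor 5, lowest in Dbp, Tef and Per3, had the highest summed level of 7 of the 10 lists. Mitochondrial genes took 3.12% of its reads, where the remaining 9 lay between 0.986% and 2.22%, and it had the most extreme score on the first principal component of all tested genes. The 9 immediate early genes (Fos, Fosb, Jun and others switched on within minutes of a stimulus) summed to between 109494 and 146657 normalized counts in PBS and between 124470 and 226756 in PIIO-1 tumors, with 9 of 9 positive and 0 called (Fosb 0.87, SE 0.21). The 7 glucocorticoid-responsive genes, among them Tsc22d3, summed to between 33181 and 41277 in PBS and between 38628 and 60680.1 in PIIO-1 tumors, with 6 of 7 positive and 0 called (Sgk1 0.25, SE 0.061). The 5 red blood cell genes ran from 5488 to 12848 and from 8372 to 58643, with 5 of 5 positive and 0 called. The 6 leukocyte genes ran from 24914 to 37331 and from 22182.5 to 43223, with PIIO-1 tumor 1 lowest and PIIO-1 tumors 5 and 4 highest, the same 3 tumors that marked the ends of Cry1. Fibroblast genes (2003 to 5036 in PBS, 1619 to 5491 in PIIO-1) and cell cycle genes (28948 to 34983 and 28469 to 36753) overlapped widely. Endothelial, keratinocyte, adipocyte and skeletal muscle genes gave 0 calls, and of the adipocyte genes 2 of 3 measured were at 0 in some tumor. The part of these groups and of the mitochondrial share in the clock values was not tested; without PIIO-1 tumor 5 the differences were -0.51 for Dbp, -0.26 for Tef, -0.17 for Per3 and 0.34 for Arntl.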

How the data were processed

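The deposited values are a signal that is never negative: read counts per gene scaled to 1 size factor per tumor by DESeq2, per the submitters' processing notes, which also name HISAT2, featureCounts and GRCm38. Tool versions, strand setting and annotation were not given in the sources used here. Dividing each deposited column by the worth of 1 read gave reads, and 100% of values came out whole within 0.001 read. The treatment labels gave the groups and the titles the replicate numbers. limma 3.58.1 (R 4.3.3, intensity trend, two-sided) was fitted to log2(value + 1) of the 16767 genes averaging 10 or more, with Benjamini-Hochberg adjustment over all of them and a threshold of 0.05. Such differences understate low genes. Pair correlations used 100000 permutations. edgeR 4.0.16 and DESeq2 1.42.0 were run on the recovered reads. Of this code, the limma fit was checked on simulated counts. Coordinates and exon lengths are from GENCODE M21 (GRCm38), where 99.0% of symbols matched 1 gene, and promoters from RefSeq.

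The members, lists and pairs were chosen with earlier results of these data known. Genes named are the 10, the 4 other clock genes with the smallest p with Arntl, Npas2, Nfil3 and Hlf, overlapping genes, the 3 most similar genes of each, and the smallest-p gene of context lists; other names, the bladder lining, epithelial and Vim markers and the search motifs were chosen after values were seen. Replicate numbers did not pair the tumors. Some results of other clock genes are not reported here.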

Additional observations from a re-analysis of the deposited data

How the results depend on the processing

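The differences of Dbp, Tef, Per3, Nr1d1, Nr1d2, Cry2, Per2, Arntl, Nfil3 and Tsc22d3 kept their sign under every alternative run: pseudocounts of 0.5 and 5, no filter, a minimum mean of 50, TMM scaling, no trend, array weights, the replicate block, edgeR, DESeq2, each tumor left out, and both PIIO-1 tumor 5 and PBS tumor 4 removed, which was chosen after seeing the data. None of these 10 genes, nor Per1, Cry1 or Clock, passed in any of them. Dbp ran from -0.74 (without PIIO-1 tumor 3) to -0.51, Tef from -0.35 to -0.19, Per3 from -0.27 to -0.14, and Arntl from 0.25 to 0.39. With both tumors left out, Nr1d2 was -0.11 and Nfil3 0.23. Per1, Cry1 and Clock lay near 0 and changed sign: Cry1 was -1.91e-05 with TMM scaling, -0.033 with array weights and -0.15 without the 2 tumors, and Per1 -0.021 and -0.025 in the last 2 of these. With 1 tumor left out in turn, Cry1 ran from -0.12 to 0.12, Per1 from -0.012 to 0.16 and Clock from -0.015 to 0.051. Over all genes DESeq2 called 3 where limma called 0. Of the 78 pairs, 2 passed with values centred within groups, between 0 and 6 with 1 tumor left out, and 0 without the 2 tumors; the cause was not tested.

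Same-numbered tumors of the 2 groups had correlated deviations between -0.21 and 0.095, so the numbers are only names. With the replicate block 0 of 10 clock genes, 0 other clock genes and 0 genes in all passed, as without it. In that setting 4 clock genes had an unadjusted p under 0.05, beside 885 of all tested genes. For 1 of 5 numbers the best match was the tumor of the same number. At 3 reads, the level a count of 0 allows, a gene has between 2.45 and 4.68 normalized counts, so Npas2 and Hlf lie near the limit of detection.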
